A study of Mus musculus with 2 samples.

Results

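The EGF-family ligands are secreted growth factors that activate the ErbB receptors, a family of tyrosine kinases that signal through RAS and ERK. Each is made as a precursor held in the cell membrane and is cut free by proteases such as ADAM17, so a cell can stimulate itself and its neighbours. Areg, Tgfa, Ereg, Btc and Hbegf bind the EGF receptor Egfr, with Ereg, Btc and Hbegf also binding Erbb4, while Nrg1 binds Erbb3 and Erbb4. EGFR is among the genes most often amplified in human glioblastoma, and EGF itself is a standard additive of neurosphere medium.

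The 6 ligands Areg, Ereg, Hbegf, Btc, Tgfa and Nrg1 were chosen by gene symbol from the 32285 genes counted. They were examined in GL261, a glioma cell line from C57BL/6 mice that the labels call an astrocytoma. One library was made from adherent cells grown in DMEM with serum. The other was made from neurosphere cells, which had EGF (20 ng/mL), FGF (20 ng/mL) and the B-27 supplement added to their medium for 12 days. Adherent cells were detached with trypsin. Neurospheres were pelleted, placed in trypsin per the labels and broken up through pipette tips of decreasing width. Both suspensions were frozen in medium with DMSO and sequenced as 10x Genomics 3’ v3 single-cell libraries. There was 1 library for each culture, so differences could be set against counting error but not against the spread between replicates, and nothing was tested. Culture form, added growth factors, harvest and library cannot be told apart. All intervals are exact 95% intervals that cover counting error only.

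A unique molecular identifier (UMI) marks 1 captured transcript end, so levels were not divided by transcript length. The level of a gene is given as counts per 1e6 UMIs (CPM), its UMIs summed across all kept cells and divided by the 46290996 UMIs of 5051 adherent cells or the 64943938 UMIs of 4276 neurosphere cells. The median kept cell had 8260 UMIs in the adherent and 13198.5 in the neurosphere library. Shares of cells with a UMI were therefore also taken after each cell was thinned to 5000 UMIs, which left 4464 adherent and 4196 neurosphere cells. Of the called barcodes, 12 occurred in both libraries, 0.208% of the adherent and 0.242% of the neurosphere barcodes. As both libraries hold a single cell line, no cell type that should lack a ligand was there to give the share of cells with a UMI from free RNA. The astrocyte marker Gfap had 30 UMIs in adherent and 27 in neurosphere cells and Aqp4 had none, while S100b and Sox2 were at 161 and 209 CPM in adherent cells and at 255 and 180 CPM in neurosphere cells.

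Hbegf and Areg were 9.95 and 8.76-fold lower in neurosphere cells, and Tgfa was slightly higher, so that Tgfa replaced Hbegf as the ligand with the most UMIs. The 6 ligands together reached 389 CPM (383 to 394) in adherent cells but 90.5 CPM (88.2 to 92.9) in neurosphere cells. This is a log2 fold change of -2.10 (-2.14 to -2.06), or 4.29-fold lower. The difference rested on Hbegf, since the log2 fold change of the other 5 ligands summed was -0.14. Hbegf made up 83.6% of the ligand UMIs in adherent cells but 36.1% in neurosphere cells. Tgfa made up 10.1% and 59.3%, and Areg 5.76% and 2.82%. Of the 5 ligands with enough UMIs for a fold change, 2 were over 2-fold lower, where 11.7% of all genes with at least 50 UMIs were. Over 2-fold higher were 0 of 5 ligands, against 21.7% of those genes. The median log2 fold change of the 5 ligands was -0.59, and that of all 14654 genes was 0.32.

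**Figure D1:**
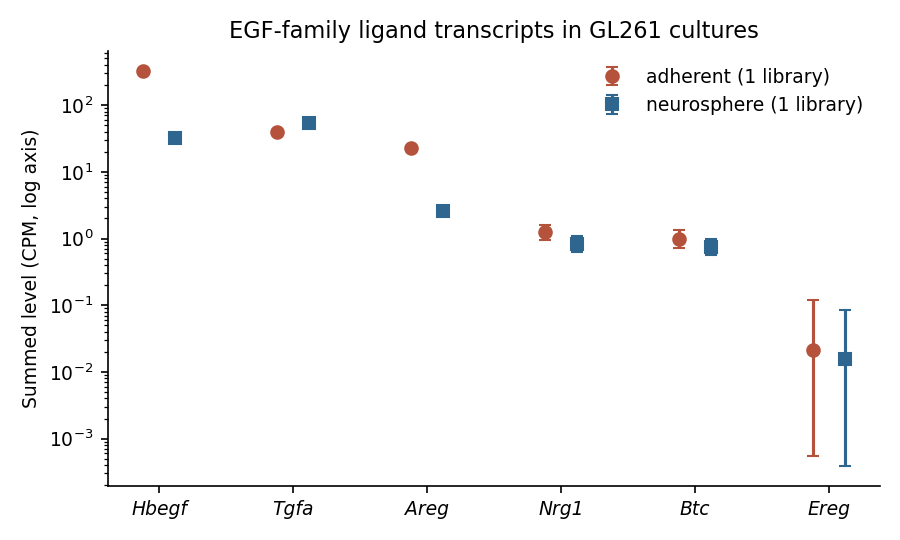
Level of each ligand in CPM on a log axis, summed over the kept cells of the adherent library (circles) and the neurosphere library (squares), with exact 95% Poisson intervals for counting error. Hbegf and Areg lay lower in neurosphere cells, Tgfa lay slightly higher, Nrg1 and Btc stood near 1 CPM in both, and Ereg rests on 1 UMI in each library.

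Hbegf encodes heparin-binding EGF-like growth factor, which is made as a membrane-bound precursor. Its gene (ENSMUSG00000024486) spans chromosome 18 positions 36504927 to 36515805 on the minus strand in GRCm38. It had 15037 UMIs in adherent cells, at 325 CPM (320 to 330), and 2121 UMIs in neurosphere cells, at 32.7 CPM (31.3 to 34.1). The log2 fold change was -3.31 (-3.38 to -3.25), or 9.95-fold lower. Most adherent cells held a UMI of the transcript, and 443 neurosphere cells held more than 1. A UMI of Hbegf was present in 70.9% of adherent cells (69.6% to 72.2%) and in 27.3% of neurosphere cells (26.0% to 28.7%). After thinning, the shares were 59.6% and 13.1%. Among cells with a UMI, 31.2% of adherent cells and 62.1% of neurosphere cells had exactly 1. At least 10 UMIs were found in 326 adherent cells, which held 39.1% of the library's Hbegf UMIs, and in 11 neurosphere cells, which held 9.71%. The highest adherent cell had 71 UMIs and the highest neurosphere cell had 54, where the next neurosphere cell had 21.

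Areg encodes amphiregulin, a ligand of Egfr alone among the ErbB receptors. Its gene (ENSMUSG00000029378) spans chromosome 5 positions 91139599 to 91148432 on the plus strand. It had 1036 UMIs in adherent cells, at 22.4 CPM (21.0 to 23.8), and 166 UMIs in neurosphere cells, at 2.56 CPM (2.18 to 2.98). The log2 fold change was -3.13 (-3.38 to -2.89), or 8.76-fold lower, which overlaps the interval of Hbegf. The transcript was found in few cells of either culture, in 7.74% of adherent cells (7.02% to 8.51%) and 1.92% of neurosphere cells (1.53% to 2.37%). After thinning, these shares were 4.68% and 0.810%.

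A few adherent cells carried much of the Areg. The 51 adherent cells with the most UMIs, 1% of the library, held 59.9% of them, where the top 1% of cells held 12.7% of the Hbegf UMIs and 9.88% of the Tgfa UMIs. There were 277 adherent cells with 1 UMI, 99 with 2 to 9 and 15 with at least 10, and those 15 held 426 UMIs or 41.1%. A single adherent cell had 145 UMIs of Areg, 14.0% of all, and the next cell had 68. That cell had 14356 UMIs and 3661 genes, which placed it at percentile 89.3 of the library by UMIs, and it held 3 UMIs of Hbegf. Without the top cell of each library, Areg was at 19.3 CPM (adherent) and 2.34 CPM (neurosphere), a log2 fold change of -3.04. The variance of thinned counts over their mean was 9.01 for Areg, 4.60 for Hbegf and 1.11 for Tgfa in adherent cells, where a value of 1 is that of a Poisson distribution. In neurosphere cells it was 2.83, 1.62 and 1.14. The cell with the most thinned UMIs of each gene was then left out, an alternative added after seeing the data. Areg was at 4.46 and Hbegf at 4.44 in adherent cells, where the gap in this ratio rested on the top cell. In neurosphere cells they were at 1.51 and 1.32, where a smaller gap was left. The ratio can rise with the mean, so it does not compare the spread of genes or cultures with unlike means. Thinned adherent cells held a mean of 0.0936 UMIs of Areg and 1.62 of Hbegf, and thinned neurosphere cells 0.0122 and 0.161. Ranked by Seurat's standardized variance, Areg was number 10 and Hbegf number 26 of 21378 genes in adherent cells, and they were numbers 122 and 160 of 22381 in neurosphere cells. Tgfa was number 2339 and number 7502. These ranks were made with all kept cells.

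**Figure D2:**
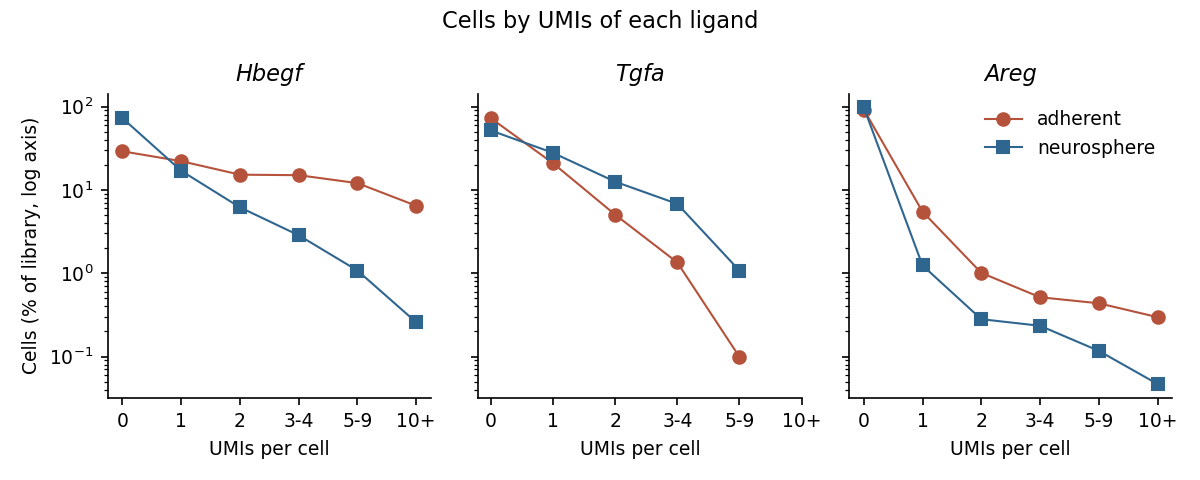
Share of cells on a log axis by the number of UMIs of Hbegf, Tgfa and Areg in the cell, for the 5051 adherent (circles) and 4276 neurosphere cells (squares), not thinned, with classes that hold no cell left blank. The Hbegf and Areg classes above 0 UMIs hold a larger share of adherent cells and the Tgfa classes above 0 a larger share of neurosphere cells, and only Hbegf and Areg reach 10 or more UMIs in a cell.

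Cells with Areg were compared by how much of it they held. Hbegf was at 307 CPM (302 to 312) in the 4660 adherent cells with no UMI of Areg, at 442 CPM (419 to 466) in those with 1 and at 653 CPM (608 to 701) in those with 2 to 9. In the 15 cells with at least 10 UMIs it was at 285 CPM (216 to 371), from 56 UMIs, an interval that holds the level of the cells with none. Hbegf was found in 12 of those 15 cells, or 80.0%, and in 70.1% of the cells with none. The median depth of these adherent cells also differed, with 8136, 10055, 9873 and 14239 UMIs per cell, and its part in these values was not tested. In neurosphere cells, Hbegf was at 31.5 CPM (30.2 to 32.9) in the 4194 cells with no UMI of Areg. It was at 34.1 CPM (24.4 to 46.4) in the 53 with 1 and at 141 CPM (113 to 173) in the 27 with 2 to 9. In those 27 cells, 1 cell held 54 of the 90 Hbegf UMIs. The 2 neurosphere cells with at least 10 UMIs of Areg held 1 UMI of Hbegf.

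Ereg, Areg and Btc lie side by side on chromosome 5, together with the related ligand Epgn. Ereg ends 46.0 kb before the start of Areg, and Btc, which lies on the opposite strand, ends 209 kb beyond Areg. Their levels differed widely within this stretch, from 22.4 CPM for Areg to 1 UMI for Ereg in adherent cells. RefSeq promoter windows of GRCm38.p6, from 250 bases before to 50 bases after the start, were found for 3 of the 6 ligands (Areg, Btc and Tgfa). The 250 bases before the start of Areg (chr5:91139349-91139598, plus strand) and of Btc (chr5:91402995-91403244, minus strand) are shown to set the promoter of a ligand found in adherent cells beside that of a neighbour near 1 CPM, in the direction of transcription, with motif matches in capitals.
Areg: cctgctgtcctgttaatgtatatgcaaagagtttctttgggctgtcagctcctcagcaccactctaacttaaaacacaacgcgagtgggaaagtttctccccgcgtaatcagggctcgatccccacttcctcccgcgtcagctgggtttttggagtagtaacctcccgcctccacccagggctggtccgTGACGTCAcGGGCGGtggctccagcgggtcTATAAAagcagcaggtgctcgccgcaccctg
Btc: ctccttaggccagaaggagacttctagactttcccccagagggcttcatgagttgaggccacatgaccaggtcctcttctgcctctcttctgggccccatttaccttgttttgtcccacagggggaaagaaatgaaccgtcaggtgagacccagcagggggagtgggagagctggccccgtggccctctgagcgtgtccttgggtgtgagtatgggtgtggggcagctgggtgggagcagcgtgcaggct

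The motifs searched, on both strands of the whole windows, were TGACGTCA (the cyclic AMP response element), TGANTCA (the AP-1 site), TATAAA (the TATA box) and GGGCGG (a GC box). None of the matches printed overlap each other. The Areg window held TGACGTCA, which begins 61 bases before the start and is found in 1.79% of all 32851 windows. It also held TATAAA, which begins 31 bases before the start and is found in 13.6% of windows, and GGGCGG, found in 35.7%. TGANTCA, found in 7.81% of windows, was in none of the 3 ligand windows, and the Btc window held none of the 4 motifs. The Tgfa window held only GGGCGG. A match is a match of letters and does not show that a factor binds there.

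Tgfa encodes transforming growth factor alpha, an Egfr ligand made by many tumours. Its gene (ENSMUSG00000029999) spans chromosome 6 positions 86195223 to 86275719 on the plus strand. Adherent cells held 1811 UMIs of it, at 39.1 CPM (37.3 to 41.0), and neurosphere cells 3487, at 53.7 CPM (51.9 to 55.5). The log2 fold change was 0.46 (0.37 to 0.54), or 1.37-fold higher, not far from the median of 0.32 over all genes. Tgfa was spread over many cells at a low number of UMIs each. It was found in 27.4% of adherent cells (26.2% to 28.7%) and in 48.3% of neurosphere cells (46.8% to 49.8%). After thinning, the shares were 17.6% (16.5% to 18.7%) and 23.4% (22.1% to 24.7%), a difference of 5.79 percentage points in place of 20.9. No adherent cell had more than 6 UMIs of Tgfa and no neurosphere cell more than 8.

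Nrg1, Btc and Ereg were near or below 1 CPM in both cultures. Nrg1 encodes neuregulin 1, a ligand known for its role in glia and Schwann cells. Its gene (ENSMUSG00000062991) spans chromosome 8 positions 31814551 to 32884029 on the minus strand, with 18 annotated transcripts that share a single count. Adherent cells had 58 UMIs, at 1.25 CPM (0.95 to 1.62), against 54 in neurosphere cells, at 0.83 CPM (0.62 to 1.08), with a log2 fold change of -0.59 (-1.15 to -0.03). A single neurosphere cell had 6 of the 54 UMIs. A UMI was found in 1.09% and 1.08% of cells. Btc encodes betacellulin. Its gene (ENSMUSG00000082361) spans chromosome 5 positions 91357261 to 91402994 on the minus strand. Adherent cells had 46 UMIs, at 0.99 CPM (0.73 to 1.33), against 49 in neurosphere cells, at 0.75 CPM (0.56 to 1.00), a log2 fold change of -0.40 (-1.01 to 0.22) that counting error alone does not separate from 0. Ereg encodes epiregulin. Its gene (ENSMUSG00000029377) spans chromosome 5 positions 91074622 to 91093646 on the plus strand. It had 1 UMI in each library, which allows a share of cells with a captured UMI of up to 0.110% in adherent and 0.130% in neurosphere cells. This does not limit the share of cells that expressed Ereg, and no fold change is given.

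In adherent cells the order of levels was Hbegf, Tgfa, Areg, Nrg1, Btc and Ereg, where the intervals of Nrg1 and Btc overlapped. In neurosphere cells the order was Tgfa, Hbegf, Areg, Nrg1, Btc and Ereg, and the intervals of Nrg1 and Btc again overlapped. At least 1 UMI of any of the 6 ligands was seen in 79.0% of the adherent cells against 62.7% of the neurosphere cells, or 68.9% and 34.7% after thinning. UMIs of at least 2 different ligands were found in 26.2% and 16.0% of cells, or 13.2% and 3.34% after thinning.

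The ligands were next compared within single cells, each thinned to 5000 UMIs. In adherent cells, Hbegf was found in 68.4% (61.7% to 74.7%) of the 209 cells with Areg and in 59.2% (57.7% to 60.7%) of those without. In neurosphere cells, it was found in 6 of the 34 cells with Areg, or 17.6% (6.76% to 34.5%), and in 13.1% of those without, and these intervals overlapped. Hbegf was found in 56.6% of adherent cells with Tgfa and 60.3% of those without, and in 12.4% and 13.3% of neurosphere cells, with overlapping intervals in both libraries. The direction in adherent cells turned with depth, to 46.3% and 45.7% at 3000 UMIs and to 76.1% and 69.0% without thinning. In neurosphere cells it turned without thinning, to 29.2% and 25.6%. Tgfa was found in 18.2% of adherent cells with Areg and 17.6% of those without, and in 4 of the 34 neurosphere cells with Areg, or 11.8% (3.30% to 27.5%), and 23.5% (22.2% to 24.8%) of those without. At 3000 UMIs both directions turned, with 9.43% and 11.6% of adherent cells and 23.8% and 15.3% of neurosphere cells, so no direction is read for Tgfa with either ligand.

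Over thinned cells, the genes whose log normalized values were most like Hbegf in adherent cells were Phlda1 (Pearson r = 0.28), Ccnd1 (r = 0.25), Tnfrsf12a (r = 0.20), F3 (r = 0.17) and Hmga2 (r = 0.16), out of 7963 genes compared over 4464 cells. Ccnd1 encodes cyclin D1, and Phlda1 and F3 are genes induced by growth factors. In neurosphere cells they were Tnfrsf12a (r = 0.16), Hmga2 (r = 0.16), Tm4sf1 (r = 0.14), Eps8 (r = 0.14), which encodes an Egfr substrate, and Ano6 (r = 0.13). For Areg in adherent cells they were Spp1 and Mt3 (r = 0.10 each), S100a6 (r = 0.099) and Timp1 and S100a4 (r = 0.08 each), and Hbegf was number 16 of 7964 genes. For Tgfa in adherent cells they were Adgra3, Lhfpl3, Slc26a2, Snx1 and 2610035D17Rik, with r from 0.089 to 0.11. In neurosphere cells they were Gng12, Sox6, Ppp2r2b, Col11a1 and Adgrl3, with r of 0.13 each. All are weak and come from sparse counts of cells that share a library, and they are given as descriptions.

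Each library was clustered with the 6 ligands left out of the genes used, which gave 11 clusters in each. All 11 adherent clusters had more Hbegf than any neurosphere cluster. It ranged from 204 CPM (191 to 218) in adherent cluster 6, led by the mitosis genes Ccnf, Nusap1 and Kifc1, to 485 CPM (470 to 501) in cluster 0, led by the histone genes Hist1h2ap, Hist1h1b and Hist1h2ae. Among neurosphere clusters it ranged from 18.6 CPM (15.6 to 21.9) in cluster 2, led by Sult1e1, Nmrk1 and Tcp11l2, to 70.9 CPM (62.9 to 79.7) in cluster 7, led by Tnnt3, Btbd17 and Mmp2. Neurosphere clusters 10 (Cox6a2, Nupr1 and Slc7a11) and 6 (Wnt7b, Prss56 and Fosl1) followed at 60.4 and 58.9 CPM, and cluster 8 (Chit1, Ahnak2 and Ndrg4) at 49.3 CPM.

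Tgfa was lower in those 4 neurosphere clusters than in the others, save cluster 3 (Rrm2, Ccne2 and Tcf19) at 37.6 CPM. It was at 38.3 CPM (32.5 to 44.9) in cluster 7 and 35.4 CPM (24.5 to 49.5) in cluster 10. In cluster 6 it was at 31.3 CPM (27.6 to 35.4) and in cluster 8 at 43.7 CPM (37.0 to 51.4). The intervals of clusters 8 and 10 overlapped those of clusters 2 (48.5 to 59.2), 4 (48.3 to 57.7) and 9 (47.5 to 66.8). Tgfa was highest, at 87.4 CPM (78.3 to 97.3), in cluster 5, led by Enpp2, the myelin gene Mbp and Gm4876. Next were cluster 0 (Depdc1b, Adgrb3 and Rtkn2) at 75.1 CPM and cluster 1 (Comp, Pdzd2 and Rgs16) at 68.7 CPM. Across the 11 neurosphere clusters, Spearman's rho of Hbegf and Tgfa was -0.55, and across the 11 adherent clusters it was -0.41, as descriptions over clusters that share a library. These moved with the clustering, to -0.53 and -0.90 at a resolution of 0.8 and to -0.28 and -0.49 with the ligands among the genes used. Among adherent clusters Tgfa ranged from 23.4 CPM (17.7 to 30.3) in cluster 8, whose leading genes included Ubtd1 and Cited1, to 57.7 CPM (51.6 to 64.4) in cluster 5 (Pif1, Aspm and Cenpe), leaving aside cluster 10, whose 49 cells, led by Lars2, Pcdh9 and Cep85l and with a median of 2647 UMIs, gave a wide interval (45.5 to 154 CPM). The Tgfa ranges of the adherent and neurosphere clusters overlapped.

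**Figure D3:**
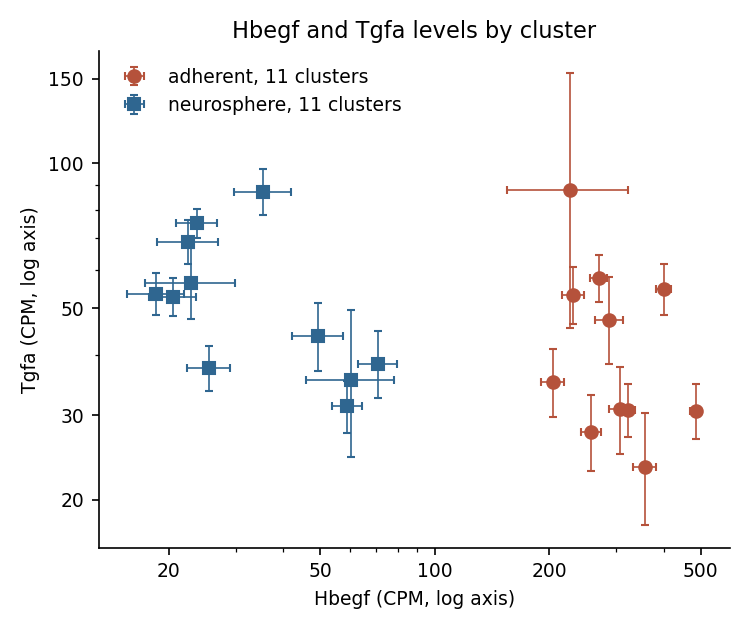
Level of Hbegf against that of Tgfa in CPM, both on log axes, in the 11 adherent (circles) and 11 neurosphere clusters (squares), with exact 95% Poisson intervals. The adherent clusters lie between 204 and 485 CPM of Hbegf and the neurosphere clusters between 18.6 and 70.9 CPM, while their Tgfa levels overlap.

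Areg was uneven between the adherent clusters. It was at 54.9 CPM (49.9 to 60.3) in cluster 4, led by Gm13889, Ube2c and Pcbd1, which held 42.1% of its UMIs in 10.8% of the cells, and at 46.8 CPM (40.6 to 53.7) in cluster 2, led by Mt3, which encodes a metallothionein, Slc30a4 and Ackr3. The 15 cells with at least 10 UMIs were 9 cells of cluster 4, 5 cells of cluster 2 and 1 cell of cluster 0. The cell with 145 UMIs was in cluster 4, and without it that cluster was at 36.7 CPM and held 32.7% of the UMIs, below the level of cluster 2, which was itself at 31.4 CPM without its own top cell. Cluster 4 also had the deepest cells, with a median of 13083 UMIs, and the part of depth was not tested. Areg was low in cluster 7, led by Gm43689, Tex14 and AV356131, at 2.92 CPM (1.34 to 5.55), and in cluster 3, led by Cdc20, 2610035D17Rik and Cdkn3, at 4.22 CPM (2.46 to 6.76). None of its UMIs were found in cluster 10. Among neurosphere clusters it ranged from 0.41 CPM (1 UMI) in cluster 9 to 6.17 CPM (21 UMIs) in cluster 8, where 5 cells held Areg and 1 of them had 10 of the UMIs. With the top cell of each cluster left out, an alternative added after seeing the data, cluster 8 was at 3.24 CPM, below clusters 6 (3.69 CPM) and 7 (3.53 CPM).

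The 5 other ligands of the family were also low. Egf, which encodes the growth factor added to the neurosphere medium, stood at 1.71 CPM (adherent) and 4.17 CPM (neurosphere), a log2 fold change of 1.29 (0.92 to 1.67). Nrg2 was at 2.55 and 5.84 CPM, a log2 fold change of 1.19 (0.89 to 1.51). Nrg3 had 43 and 51 UMIs, a log2 fold change of -0.24 (-0.86 to 0.38). Epgn, which encodes epigen, had 9 and 19 UMIs, and Nrg4 had 12 and 24 UMIs, and the intervals of both log2 fold changes, -0.62 to 1.92 and -0.54 to 1.65, hold 0.

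Of the receptors, Egfr, which binds 5 of the 6 ligands, was almost undetected. It had 24 UMIs in 21 adherent cells and 1 UMI in the neurosphere library, at 0.52 and 0.015 CPM, a log2 fold change of -5.07 (-10.4 to -2.46). Of the 21 adherent cells with Egfr, 15 also held Hbegf, or 71.4% (47.8% to 88.7%) against 70.9% of the cells without Egfr. Tgfa was in 4 of the 21 (19.0%, 5.45% to 41.9%) against 27.4%, and Areg in 3 (14.3%, 3.05% to 36.3%) against 7.71%, so that each interval held the share of the cells without Egfr. Erbb3, a receptor of Nrg1, had the highest level of the 4 receptors, with a log2 fold change of -0.50 (-0.58 to -0.42). It was at 51.8 CPM in 32.7% of adherent cells and 36.6 CPM in 21.8% of neurosphere cells. Erbb2, which has no ligand of its own and pairs with the other receptors, was at 5.60 and 5.31 CPM, a log2 fold change of -0.07 (-0.31 to 0.16). Erbb4 had 5 UMIs and 233 UMIs, at 3.59 CPM in neurosphere cells, with a log2 fold change of 5.05 (3.81 to 6.69). After thinning, Erbb3 was found in 27.5% (24.4% to 30.8%) of adherent cells with Tgfa and 19.8% (18.6% to 21.2%) of those without. At 3000 UMIs these came to 17.6% (14.6% to 21.0%) and 14.2% (13.2% to 15.3%), with overlapping intervals. In neurosphere cells the shares at 5000 UMIs were 15.9% (13.7% to 18.3%) and 11.4% (10.3% to 12.5%). A gap of like size stood between neurosphere cells with and without Hbegf, of which 16.4% (13.4% to 19.7%) and 11.8% (10.8% to 12.9%) had Erbb3. At 3000 UMIs the neurosphere shares were 13.5% and 8.62% for the split by Tgfa and 10.4% and 9.29% for that by Hbegf. In adherent cells, Erbb3 was found in 21.1% of cells with Hbegf and 21.3% of those without.

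Of all genes with at least 50 UMIs, 21.7% were over 2-fold higher and 11.7% over 2-fold lower in neurosphere cells. All 7 genes of ligand release had at least 50 UMIs, and 2 were over 2-fold higher and 3 over 2-fold lower in neurosphere cells. The metalloprotease gene Adam12 was the highest, with a log2 fold change of 3.42 (3.26 to 3.59), from 7.22 to 77.5 CPM, and the rhomboid protease gene Rhbdl2 the lowest, at -2.67 (-3.42 to -1.97), from 95 to 21 UMIs. Their median was 0.37. Of the 6 genes that restrain the receptors, 1 was over 2-fold higher (Lrig1, a log2 fold change of 1.33) and 1 over 2-fold lower (Errfi1, which encodes an inhibitor of the Egfr kinase, -1.25), with a median of 0.38. Of the 16 receptor adaptor, RAS, RAF, MEK and ERK genes, 3 were over 2-fold higher and 0 lower. Gab1 was the highest (1.78) and Mapk3, which encodes ERK1, the lowest (-0.89), with a median of 0.38.

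Of 12 genes induced by ERK signalling, 2 were over 2-fold higher and 3 over 2-fold lower, against 21.7% and 11.7% of all genes, from Spry1 (1.51) to the phosphatase gene Dusp5 (-1.70), with a median of 0.19. Of 12 immediate early genes, 4 were over 2-fold higher and 4 over 2-fold lower, from Btg2 (2.53) to Ier3 (-2.51), with a median of 0.71. The median over all genes was 0.32. With TMM scaling, the immediate early genes over 2-fold were 3 higher and 4 lower, and with the removed genes kept in the total 5 higher and 2 lower. The ERK-induced genes were then 1 higher and 3 lower, and 2 higher and 2 lower, with medians of -0.03 and 0.41.

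**Figure D4:**
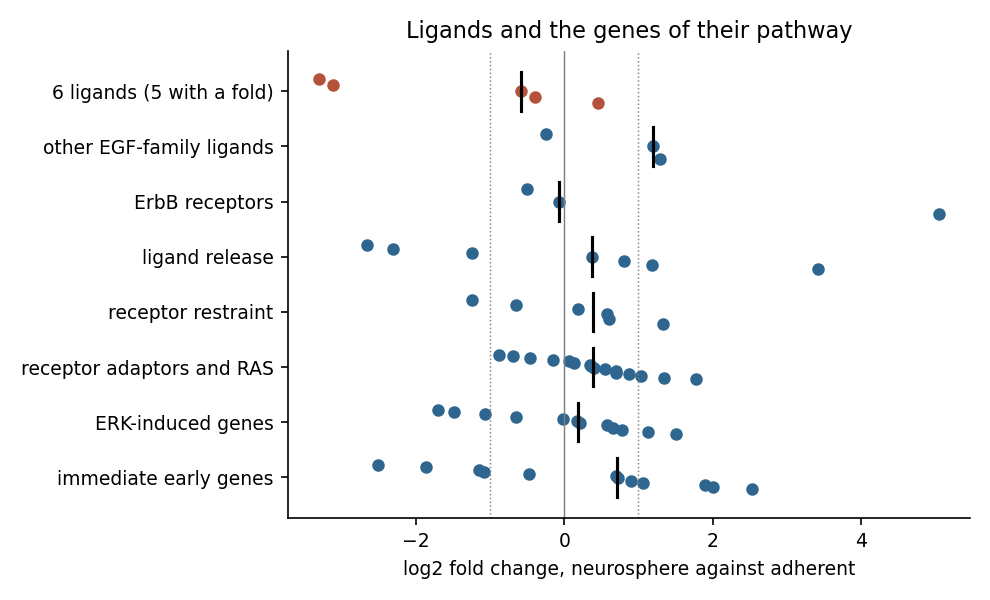
Log2 fold change, neurosphere against adherent, of the ligands and of the genes of their pathway with at least 50 UMIs over both libraries, with each point a gene, each black bar the median of a list and dotted lines at 2-fold. Hbegf (-3.31) and Areg (-3.13) are the lowest of all the genes drawn, and Erbb4 (5.05) is the highest. Egfr (-5.07) had fewer than 50 UMIs over both libraries and is not drawn.

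Markers of other cells were checked, since immune cells and fibroblasts also make these ligands. The 12 immune markers summed to 15.6 CPM (adherent) and 6.65 CPM (neurosphere), with 3 genes at 0 in each. Ptprc had 1 UMI in adherent cells and none in neurosphere cells, and Tyrobp none in either, while Csf1r had 5 and 19 UMIs and Fcer1g 13 and 33. Of the 3 markers with at least 50 UMIs, 2 were over 2-fold lower in neurosphere cells, against 11.7% of all genes lower and 21.7% higher. The 3 ran from S100a8 (98 and 3 UMIs, -5.52) to Cx3cr1 (103 and 96 UMIs, -0.59), with Cd68 at 485 and 276 UMIs. The 8 fibroblast and vessel markers summed to 14.3 CPM (adherent) and 573 CPM (neurosphere). A UMI of Col1a1 was found in 69.8% of neurosphere cells, of Col3a1 in 47.9% and of Dcn in 26.7%. Pdgfra was found in 6.36% of neurosphere cells, Pecam1 in 3.79% and Lum in 2.74%. In adherent cells these shares were 2.16%, 3.23%, 0.0198%, 5.66%, 1.19% and 0%, in the same order. Of the 6 with at least 50 UMIs, 5 were over 2-fold higher, with Dcn the highest (1 and 3606 UMIs, 11.3, interval 8.85 to 16.6) and Pdgfra the lowest (-0.44), while Cdh5 had no UMI in either library. Of the 9 astrocyte and glioma markers with at least 50 UMIs, 1 was over 2-fold higher (Olig2, 2.74) and 2 were over 2-fold lower, with Slc1a3 the lowest (-2.20). The part of these differences in the ligand levels was not tested.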

How the data were processed

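For each library, the authors deposited raw UMI counts per gene and called cell, made with Cell Ranger 7.0.1 on mm10 per the submitters' processing notes, without normalization or a later cell filter. Whether reads in introns were counted is not given in the sources used here, and UMIs of all transcripts of a gene share a count.

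The files held 32285 genes in 5764 adherent and 4951 neurosphere cells. The 13 mitochondrial and 101 ribosomal genes were removed, and then cells with fewer than 1000 UMIs or with fewer than 1250 (adherent) or 2250 (neurosphere) genes, the minimums of the study's Methods. This kept 5051 and 4276 cells, or 87.6% and 86.4%. Filtering cells before these genes were removed kept 5073 and 4300 cells, the numbers the study gives, and was run as an alternative. No doublet caller was used, and an alternative left out cells over the 95th percentile of UMIs. UMIs were summed per library and divided by the library's total to give CPM. Log2 fold changes (neurosphere over adherent) have exact conditional intervals, levels Poisson intervals and shares binomial (Clopper-Pearson) intervals. The intervals, at 95% confidence, cover counting error only. Cells do not stand for replicates, nothing was tested, and counts of genes over 2-fold are by size alone among genes with 50 or more UMIs in the 2 libraries together. A library at 0 was given a floor of 3 counts, and no fold is given where both libraries are at or under it. Tested on simulated data for neurosphere against adherent cells (32171 genes, 200 of them changed), the interval held the true value for 93% of the changed genes. Both simulated libraries were drawn from Poisson distributions, as the interval assumes. This checks the calculation and not how the interval does with counts that are uneven between cells.

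Clusters were made in Seurat 5.3.0 (R 4.3.3) for each library from 2000 variable genes without the 6 ligands, with 17 PCs (adherent) or 18 PCs (neurosphere) and a resolution of 1.0. They are given by number with the 3 genes of the highest fold, among genes with a UMI in at least 25% of the cluster's cells, and no cell type was named. Correlations used thinned cells and genes with a UMI in at least 5% of them, for ligands with at least 500 UMIs in the library. TMM factors came from edgeR 4.0.16 as an alternative scaling. Positions are those of the GENCODE vM21 annotation of GRCm38, which held 32235 of the gene identifiers, and promoter windows those of RefSeq.

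The 6 ligands, the gene lists and the alternatives were chosen with earlier results of these data known. Named are the 6 ligands, every other EGF-family ligand and ErbB receptor, for other lists the genes with the highest and lowest log2 fold change, the 5 genes most correlated with a ligand and the leading genes of clusters. A few further genes (S100b, Sox2, Gfap, Aqp4, Ptprc, Tyrobp, Cd68, Csf1r, Fcer1g, Cdh5, Col1a1, Col3a1, Lum and Pecam1) were named after their values were seen. The other steps ran in Python 3.11.15 (scipy 1.17.1, numpy 2.4.6, statsmodels 0.14.6, pandas 2.3.3; figures in matplotlib 3.10.9).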

Additional observations from a re-analysis of the deposited data

Results flagged for a closer look

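The barcodes left out by the cell filter, 713 adherent and 675 neurosphere, are outside the comparisons. Ligands with more UMIs in them than the set floor of 3 UMIs are given here. That floor is 7.65 CPM in adherent and 5.22 CPM in neurosphere barcodes. In the adherent barcodes, Hbegf was at 188.8 CPM (148 to 237), below its 325 CPM in the kept adherent cells. Tgfa was at 45.92 CPM (27.2 to 72.6) and Areg at 20.41 CPM (8.81 to 40.2) in these left-out barcodes. Nrg1 was at 22.96 CPM (10.5 to 43.6) there, from 9 UMIs, above its 1.25 CPM in the kept adherent cells. In the neurosphere barcodes, Hbegf was at 78.3 CPM (57.1 to 105), above its 32.7 CPM in the kept neurosphere cells, and Tgfa was at 55.68 CPM (38.1 to 78.6). The median mitochondrial share of UMIs was 48.8% in the left-out adherent and 87.0% in the left-out neurosphere barcodes. These values have no replicate and were not tested.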

How the results depend on the processing

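No paired analysis was possible because each culture has 1 library, and for the same reason no library could be left out. The summed log2 fold change of the 6 ligands, -2.10 as reported, was -2.319 with TMM scaling, -1.883 when the total still held the mitochondrial and ribosomal genes, -2.048 with each cell weighted equally, -2.053 after thinning to 5000 UMIs and -2.172 with the trend on gene span removed. Without Hbegf, an alternative added after seeing the data, it was -0.1406, so that the summed difference rests on Hbegf. TMM scaling moved the median log2 fold change of all genes by -0.22, and keeping the removed genes in the total moved it by 0.22, and these moved each ligand alike. The number of ligands over 2-fold lower was 2 or 3 under the 12 alternatives run (3 with Nrg1, with the span trend removed or at 1.5-fold), and 0 were over 2-fold higher in each. The log2 fold change ranged from -3.53 to -3.10 for Hbegf, -3.35 to -2.72 for Areg, 0.24 to 0.68 for Tgfa, -1.02 to -0.30 for Nrg1 and -0.61 to -0.15 for Btc, each with the same sign under its 12 alternatives. The share of all genes over 2-fold higher was 16.1% with TMM scaling and 29.5% with the removed genes kept, and that over 2-fold lower 14.5% and 9.38%. At 1.5-fold, 38.2% of all genes were higher and 18.3% lower. These scalings moved the counts of the 10 other lists over 2-fold by at most 2 genes in either direction. The log2 fold change of Erbb2 (-0.07) is smaller than either scaling shift, so its sign depends on the scaling. At 3000 UMIs, 45.8% of adherent cells and 8.07% of neurosphere cells had Hbegf, 11.6% and 15.4% had Tgfa, and the Erbb3 share in adherent cells with Tgfa was 3.42 percentage points above that in cells without, in place of 7.67. At a resolution of 0.8 the lowest adherent cluster had 243.6 CPM of Hbegf and the highest neurosphere cluster 64.7 CPM, and with the ligands kept among the genes used these were 211 and 64.4 CPM. Spearman's rho of Hbegf and Tgfa was then -0.90 and -0.49 across adherent clusters and -0.53 and -0.28 across neurosphere clusters, in that order of settings. Nrg1, Btc and Ereg are limited by depth, with at most 58 UMIs in a library.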
